A study of Mus musculus with 6 samples.

Results

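The genes described here encode enzymes and subunits that write, erase and remodel chromatin: the DNA methyltransferases Dnmt1, Dnmt3a and Dnmt3b, the TET dioxygenases Tet1, Tet2 and Tet3, the Polycomb genes Ezh1, Ezh2 and Bmi1, and the remodeller Chd2. They were chosen by gene name, 10 of the 17068 genes listed in each of the authors' deposited tables, and all 10 were detected in all 11 clusters. The cells were haematopoietic stem cells (HSCs) purified from bone marrow, and every mouse had the Gfp-Lc3 genotype, in which the autophagosome protein LC3 is tagged with green fluorescent protein. There were 6 libraries: old mice refed for 24 hours after a 24-hour fast, old mice after a 24-hour fast and old mice fed ad lib, and young mice in the same 3 feeding states. Each library was 1 sample, and the tables pool the libraries into 11 clusters, each set against all other cells. Age and feeding were therefore not compared here, and no value below carries an error between animals. Clusters had been defined on the expression of the same cells, so each contrast of a cluster with other cells is given as a description.

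DNA methyltransferases put a methyl group on cytosine, Dnmt1 mainly copying the pattern at replication and Dnmt3a and Dnmt3b setting new marks, and TET enzymes oxidise that mark as a step towards its removal. Polycomb repressive complex 2 (PRC2) methylates lysine 27 of histone H3 through Ezh1 or Ezh2, and Polycomb repressive complex 1 (PRC1), of which Bmi1 is a subunit, ubiquitinates histone H2A and compacts chromatin. In mouse HSCs, loss of Dnmt3a or Tet2 is known to favour self-renewal over differentiation, and Bmi1 and Ezh1 are known to be needed to maintain the stem cell pool. Chd2 is an ATP-dependent remodeller of the chromodomain helicase (CHD) family found at transcribed chromatin.

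Ezh1 and Ezh2 encode alternative catalytic subunits of PRC2 and differed in opposite directions between the large clusters, so windows at their starts are shown. With them is a window at a start of Dnmt1, the replication-linked enzyme. It was picked among the Dnmt1 windows because it held matches, and it need not be the main promoter. Each is 250 bases before to 50 after a RefSeq start on GRCm38.p6 (the build called mm10), read 5′ to 3′ on the gene's strand. Capitals mark matches to the E2F-type motifs TTTGGCGC, TTTCGCGC, TTTGCCGC and TTTCCCGC, searched on both strands; E2F factors are known to drive genes of DNA replication.
Ezh2: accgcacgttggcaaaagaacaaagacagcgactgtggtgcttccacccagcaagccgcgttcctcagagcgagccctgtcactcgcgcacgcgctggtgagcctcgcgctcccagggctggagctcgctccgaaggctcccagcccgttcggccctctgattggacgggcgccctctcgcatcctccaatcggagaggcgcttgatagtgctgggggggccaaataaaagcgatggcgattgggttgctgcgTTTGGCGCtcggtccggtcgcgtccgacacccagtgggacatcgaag
Ezh1: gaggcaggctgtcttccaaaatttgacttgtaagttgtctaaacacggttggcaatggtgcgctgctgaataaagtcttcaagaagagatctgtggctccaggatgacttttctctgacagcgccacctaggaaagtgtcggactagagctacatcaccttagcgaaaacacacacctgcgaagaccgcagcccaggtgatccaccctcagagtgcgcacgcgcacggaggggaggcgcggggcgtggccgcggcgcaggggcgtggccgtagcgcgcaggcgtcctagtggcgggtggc
Dnmt1: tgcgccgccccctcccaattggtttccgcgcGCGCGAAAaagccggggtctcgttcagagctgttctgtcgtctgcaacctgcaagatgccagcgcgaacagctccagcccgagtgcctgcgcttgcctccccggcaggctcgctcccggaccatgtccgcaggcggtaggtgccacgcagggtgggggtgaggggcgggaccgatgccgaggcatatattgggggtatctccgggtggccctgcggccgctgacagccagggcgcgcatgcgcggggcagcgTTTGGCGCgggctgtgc
The Ezh2 window, chr6:47594981-47595280 on the minus strand, held 1 match and 31 CpG. The Ezh1 window, chr11:101226414-101226713 on the minus strand, held no match and 23 CpG. Dnmt1 has 3 windows, of which the one with matches is shown, chr9:20952574-20952873 on the minus strand, with 2 matches and 33 CpG. The window at the first base of the annotated gene, chr9:20959839-20960138, held no match and 2 CpG, and the other, chr9:20952930-20953229, held no match and 12 CpG. A match stood in 2 of the 13 windows found for 9 of the 10 genes, and in 2.26% of all 32851 RefSeq windows. CpG counts of the 13 windows ran between 2 and 57, the highest in Tet2, against a median of 7 over all windows. A match says only that these letters are in the window. Chd2 is named only.

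In all 22378 cells were clustered, a number recovered from p-values in the authors' deposited tables, and clusters 0 to 4 held 20318 of them (90.8%). Clusters 5 to 10 held 1188, 310, 267, 173, 112 and 10 cells. The equivalent depth, the count per cell at which sampling of the mean profile would leave as many genes undetected as were undetected, had its extremes among the 5 large clusters at 10538 for cluster 1 and 15555 for cluster 4, and was lowest of all in cluster 7 (9579) and cluster 6 (9651). All 10 HSC markers examined were detected in every cluster, which needs only some count there and does not by itself identify the cells. By the size rule given below, 4 of the 10 were called lower and none higher in each of clusters 0, 6 and 8. Of all genes detected there, 6.2%, 14.4% and 4.19% were called lower. The markers Ms4a1 (B cells), Ly6g (granulocytes) and Adgre1 and Csf1r (macrophages) averaged at most 0.00102 counts per 10,000. Hbb-bt (0.694), Pf4 (0.458) and Klrb1c (0.303), markers of erythroid cells, megakaryocytes and natural killer cells, were present. Cell barcodes and the share of each library in a cluster were not analysed here.

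A level below is in counts per 10,000 counts of a cell, taken back from the mean of ln(1 + x) over cells, the scale on which the deposited folds were made. Over all cells Chd2 was at 0.686, and the other 9 genes ran between 0.118 (Tet2) and 0.345 (Dnmt1). These levels are not per transcript length, so they are set against each other between clusters and not between genes. By their linear mean the 10 genes lay between the 60.3 (Tet2) and 92.0 (Chd2) percentiles of all listed genes. The SD of ln(1 + x) over cells, given for some values below, is largely counting noise at these levels and is no error of a cluster mean. A gene is called higher or lower below where the authors' deposited log2 fold was at least 0.5 in size and the deposited adjusted p under 0.05. That p treats cells as replicates and served only as a filter. By this rule the 10 genes gave 3 higher and 8 lower calls over clusters 0 to 9, and none in cluster 10.

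**Figure D1:**
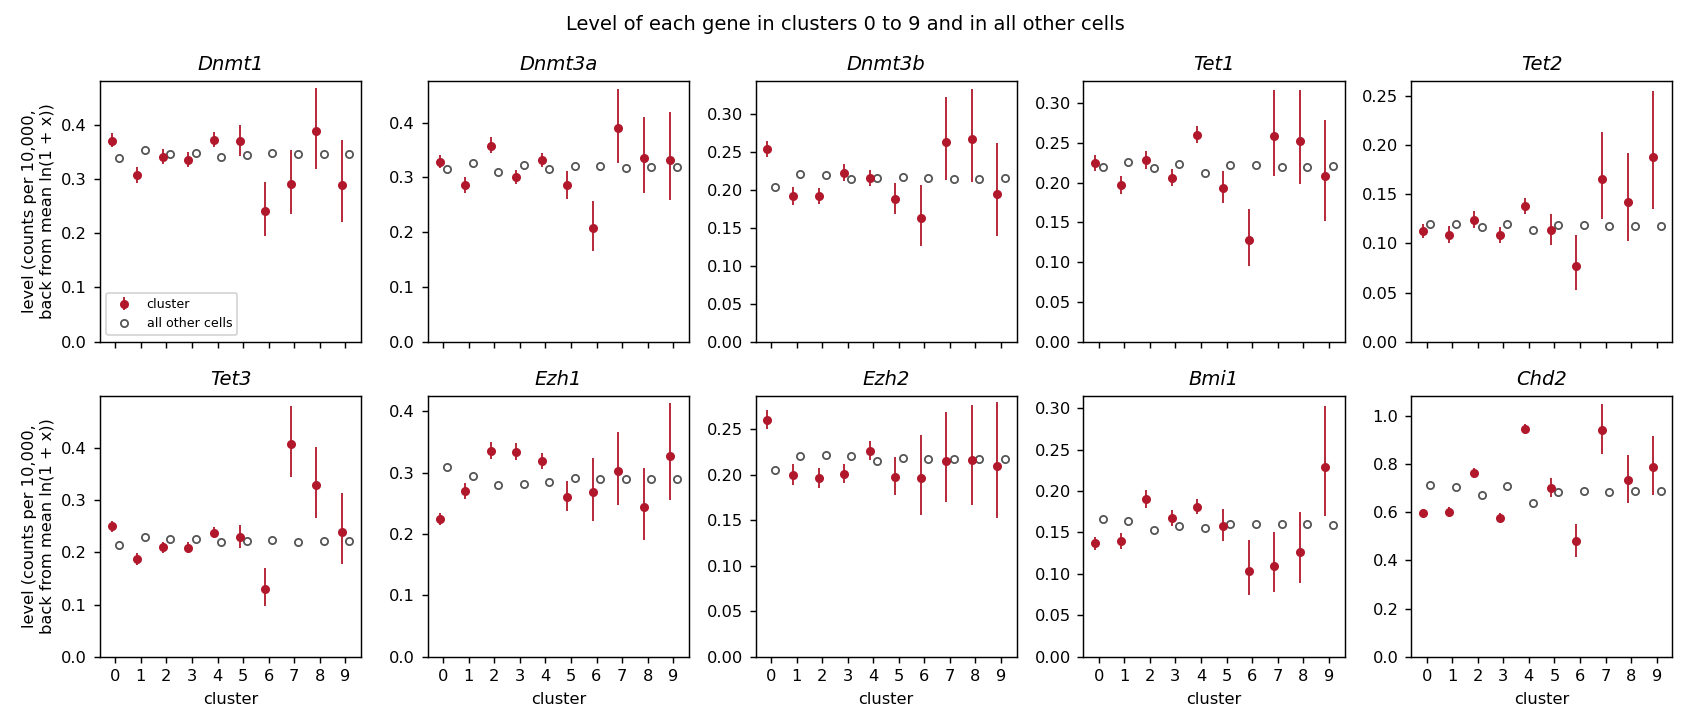
Level of each gene (counts per 10,000, taken back from the mean of ln(1 + x)) in clusters 0 to 9, with filled points for the cluster and open points to the right for all other cells. Bars are 95% Poisson intervals from estimated counts and cover counting error only. Chd2 in cluster 4 (0.945) stands above the other large clusters, Ezh1 is lowest and Ezh2 highest in cluster 0, and Tet3 is highest in cluster 7 (0.408).

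None of the 3 DNA methyltransferase genes passed the size rule in clusters 0 to 5. Dnmt1, the maintenance enzyme (chromosome 9, 20907209 to 20959888, minus strand, mm10), was at 0.371, 0.307, 0.341, 0.336, 0.373 and 0.369 in clusters 0 to 5. The spread was 1.21-fold, cluster 4 being the highest and cluster 1 the lowest, and the counting intervals of each pair of neighbours in that order overlapped. Dnmt3a, a de novo enzyme (chromosome 12, 3806007 to 3914443, plus strand), was at 0.329, 0.286, 0.358, 0.301, 0.332 and 0.286 in the same clusters. Cluster 2 was the highest, and clusters 1 and 5 shared the lowest level. Dnmt3b, the second de novo enzyme (chromosome 2, 153649450 to 153687730, plus strand), was at 0.255 in cluster 0, against 0.205 in all other cells. In clusters 1 to 5 it lay between 0.188 and 0.222, a 1.35-fold spread over clusters 0 to 5, so that the interval of cluster 0 (0.244 to 0.265) stood above each of these levels. The authors' deposited table gave Dnmt3b in cluster 0 a log2 fold of 0.31, under the size rule.

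Dnmt1 and Dnmt3a were called lower in cluster 6, where Dnmt1 was at 0.241, against 0.347 in all other cells, and Dnmt3a was at 0.208, against 0.320 in all other cells. The deposited log2 folds in the authors' table were -0.53 and -0.63, and Dnmt3b stood at -0.41. In cluster 7 Dnmt3a was at 0.390 and Dnmt3b at 0.264, above 0.318 and 0.215 in all other cells, while Dnmt1 was at 0.290, below 0.346 in all other cells. None of these passed the size rule, and about 135, 93 and 99 counts stood behind them. In cluster 10, with 10 cells and about 50 counts, Dnmt1 was at 0.755, against 0.345 in all other cells, a log2 fold of 1.13 that did not pass the rule in the authors' deposited table.

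Over clusters 0 to 9 Tet3 had the widest range of the 10 genes, and over clusters 0 to 5 the TET genes ranged less (1.27- to 1.34-fold) than Chd2 (1.64-fold) and Ezh1 (1.50-fold). Tet3 (chromosome 6, 83362373 to 83459084, minus strand) was at 0.25, 0.188, 0.210, 0.209, 0.237 and 0.230 in clusters 0 to 5, and at 0.130, 0.408, 0.329 and 0.239 in clusters 6 to 9. Cluster 7 was the highest and cluster 6 the lowest, a 3.14-fold spread, and their counting intervals (0.344 to 0.481 and 0.0975 to 0.170) were apart. Tet3 was called higher in cluster 7, with a level of 0.408 against 0.220 in all other cells and a log2 fold of 0.89 in the authors' deposited table. It was also called higher in cluster 8, with 0.329 against 0.221 in all other cells and a deposited log2 fold of 0.57 (0.44, past the rule no longer, when folds were centred on the cluster's median), and lower in cluster 6, at -0.78. Over all listed genes 1.84% were called higher in cluster 7 and 2.37% in cluster 8. The SD of ln(1 + x) over cells was 0.577 in cluster 7, around a mean of 0.342, the widest for Tet3 of the 11 clusters. That was no trait of Tet3, as cluster 7 had the widest SD for every member except Bmi1 (0.690 for Chd2, 0.536 for Dnmt3a).

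Tet1 (chromosome 10, 62804570 to 62908996, minus strand) was highest in cluster 4, at 0.260 against 0.213 in all other cells, and lowest in cluster 6, at 0.128 against 0.222 in all other cells. The cluster 6 fold of -0.80 in the authors' deposited table was the lowest of the 10 genes in that cluster, and it passed the rule. Tet2 (chromosome 3, 133463679 to 133545139, minus strand) ran between 0.108 and 0.138 in clusters 0 to 5, again highest in cluster 4. It was at 0.188 in cluster 9, against 0.118 in all other cells, with about 41 counts and a counting interval of 0.135 to 0.255. The authors' deposited table gave a log2 fold of 0.68 there with an adjusted p of 0.0958, so it was not called. In cluster 6 Tet2 was called lower, at 0.0770 against 0.119 in all other cells.

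The PRC2 catalytic genes differed in opposite directions between clusters 0 and 2. Ezh1 (chromosome 11, 101191115 to 101226463, minus strand), the subunit known for PRC2 in non-dividing cells, was at 0.224 in cluster 0, against 0.309 in all other cells. In clusters 1 to 5 it was at 0.270, 0.336, 0.334, 0.319 and 0.261, so cluster 0 was the lowest, and it stayed the lowest over clusters 6 to 10. Ezh2 (chromosome 6, 47530139 to 47595341, minus strand), the subunit known for PRC2 in dividing cells, was at 0.261 in cluster 0, against 0.205 in all other cells. It was at 0.200, 0.197, 0.201, 0.227 and 0.198 in clusters 1 to 5, and its counting interval in cluster 0 (0.25 to 0.272) stood apart from those of the other 5. Neither gene passed the size rule in cluster 0: the authors' deposited log2 folds were -0.46 for Ezh1 and 0.34 for Ezh2, and 2.4% of all genes were called higher and 6.62% lower there.

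With cluster 0 set directly against cluster 2, Ezh1 was at 0.224 in cluster 0 and 0.336 in cluster 2, a log2 ratio of -0.58, and Ezh2 was at 0.261 in cluster 0 and 0.197 in cluster 2, a log2 ratio of 0.41. Relative to all cells, the log2 ratio of Ezh2 to Ezh1 was 0.63 in cluster 0, 0.24 in cluster 8 and between -0.08 and 0.01 in clusters 1, 4, 5, 6 and 7. It was -0.32 and -0.36 in clusters 3 and 2, and -0.23 and -0.21 in the small clusters 9 and 10. Dnmt3b (log2 ratio 0.40) and Tet3 (0.26) lay on the side of Ezh2, and Bmi1 (-0.47) and Chd2 (-0.35) on the side of Ezh1. Dnmt1, Dnmt3a, Tet1 and Tet2 stood within 0.14 of 0. Of 30 S phase genes, 25 had a fold above 0 in cluster 0 (median 0.17, 1 called higher, E2f8 at 0.82), against 51.5% of all genes detected there. In cluster 2 15 of the 30 stood above 0 (median -0.01, 2 called lower), against 54.9% of all genes detected there. HSC markers also moved: 4 of 10 were called lower in cluster 0 (Procr at -0.94, Ly6a at -0.79) and 3 of 10 higher in cluster 2, per the authors' deposited tables. The part of cell cycle genes in the Ezh1 and Ezh2 levels was not tested.

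**Figure D2:**
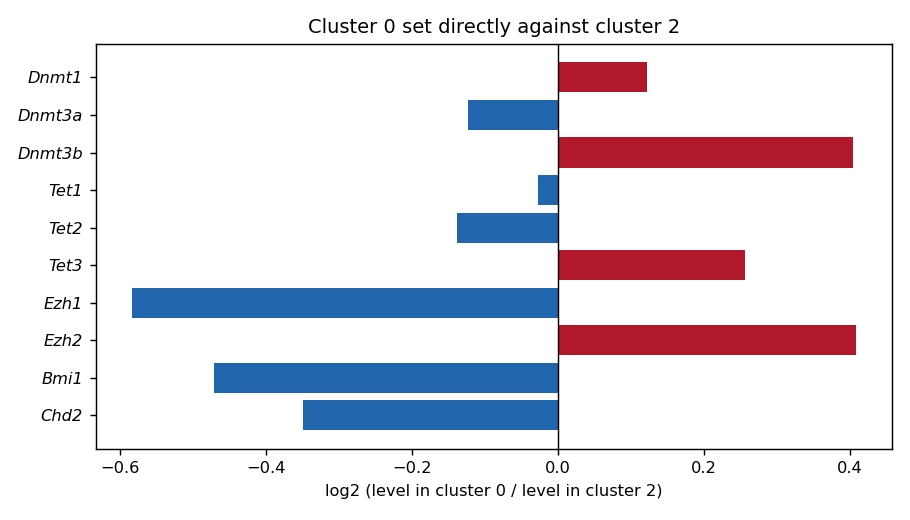
Log2 ratio of the level in cluster 0 to the level in cluster 2 for each of the 10 genes, with bars to the right for genes higher in cluster 0. Ezh2 (0.41) and Dnmt3b (0.40) lie on one side and Ezh1 (-0.58), Bmi1 (-0.47) and Chd2 (-0.35) on the other; the ratios come from cells pooled over libraries and have no error between animals.

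Bmi1 (chromosome 2, 18677018 to 18686629, plus strand) was at 0.137, 0.139, 0.190, 0.167, 0.181 and 0.158 in clusters 0 to 5, highest in cluster 2 and lowest in cluster 0. Neighbours in that order overlapped in counting interval, while the ends (0.180 to 0.201 in cluster 2 and 0.129 to 0.145 in cluster 0) did not. It was called lower in cluster 6, at 0.104 against 0.161 in all other cells, and in cluster 7, at 0.110 against 0.160 in all other cells. Bmi1 was the only one of the 10 genes called lower in cluster 7, where 24.3% of all listed genes were, or 11.3% of those detected there. In cluster 9 it was at 0.229, against 0.159 in all other cells, and the authors' deposited table gave a log2 fold of 0.52 with an adjusted p of 0.179. Cluster 9 had the most immediate early genes called higher, 21 of 24, against 1.2% of all genes. In cluster 4 it was 4 of 24, against 0.387% of all genes. Bmi1 and Tet2 were the only 2 of the 10 genes past 0.5 in cluster 9. The part of immediate early genes in these values was not tested.

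Chd2 (chromosome 7, 73426638 to 73541830, minus strand) showed the clearest difference between large clusters. Its level was 0.598, 0.600, 0.762, 0.577, 0.945 and 0.700 in clusters 0 to 5, and the counting interval of cluster 4 (0.924 to 0.967) lay above those of the other 5. Clusters 0, 1 and 3 overlapped at the low end. In ln units the mean over cells of cluster 4 was 0.665 ± 0.523 (SD over 3747 cells). Chd2 was called higher in cluster 4, at 0.945 against 0.638 in all other cells, with a log2 fold of 0.57 in the authors' deposited table; 0.387% of all genes were called higher there. Set directly, cluster 4 was 1.58-fold above cluster 0 and 1.64-fold above cluster 3. Cluster 4 was also the deepest of the large clusters, and 4 of 24 immediate early genes (Fos at 0.61, Jun at 0.59) and the nuclear RNA Neat1 (0.55) were called higher there in the authors' deposited table. Of the 24, 1 was called lower, where 1.35% of all genes were, and 6 had a fold below 0. In cluster 7 Chd2 was at 0.941, against 0.683 in all other cells, with a deposited log2 fold of 0.46, short of the rule. In cluster 6 it was called lower, at 0.478 against 0.689 in all other cells.

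The long non-coding RNA listed as 1810026B05Rik overlaps the 5′ part of Chd2 on the same strand, so reads from the overlap may have been counted for either. It averaged 0.690 counts per 10,000, and its log2 folds in the authors' deposited tables were 0.05 in cluster 4, -0.10 in cluster 6 and -0.36 in cluster 7, where Chd2 was at 0.57, -0.53 and 0.46. The signs were the same in clusters 4 and 6 and opposite in cluster 7. They were also opposite in clusters 0 (0.10, with Chd2 at -0.25), 2 (-0.03, with Chd2 at 0.18) and 5 (-0.08, with Chd2 at 0.03). In clusters 1, 3, 8, 9 and 10 they were the same. The part of shared reads in the Chd2 values was not tested. Antisense or overlapping genes of other members averaged between 0.00109 and 0.00370 counts per 10,000. The sources used here do not say whether strand was used in counting.

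**Figure D3:**
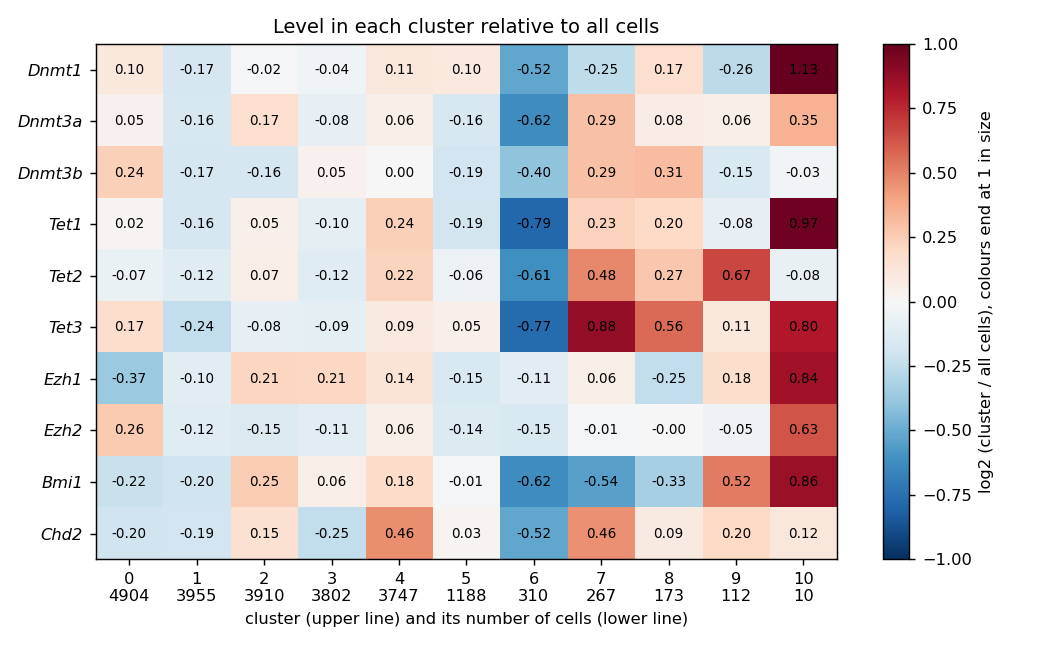
Log2 ratio of the level in each cluster (columns, with the number of cells) to the level over all cells, for each of the 10 genes (rows). Colours end at 1 in size, so Dnmt1 in cluster 10 (1.13) is off the scale; cluster 6 is below 0 in all 10 genes and cluster 4 above 0 in all 10, Dnmt3b there being at 0.00. With deposited folds centred on each cluster's median, Ezh1 and Ezh2 in cluster 6 turn above 0 and Dnmt3b in cluster 4 turns below 0.

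In clusters 1, 4 and 6 all 10 genes stood on the same side of the rest, although with folds centred on each cluster's median Dnmt3b in cluster 4 turned to -0.01 and Ezh1 (0.12) and Ezh2 (0.08) in cluster 6 turned above 0. In cluster 1 the 10 folds in the authors' deposited table were below 0 (median -0.20, between -0.29 and -0.12), and none passed the rule. Of the genes detected there 65.5% were below 0, and 2.4% of all genes were called lower. Genes of like mean level, the 5415 between the lowest and highest of the 10, had a median of -0.06 in that cluster. In cluster 4 the 10 folds were above 0 (median 0.15), against 52.8% of detected genes above 0 and a median of 0.01 for genes of like level. In cluster 6 all 10 were below 0 (median -0.57), 7 of them called lower, against 73.0% of detected genes below 0 and 26.2% of all genes called lower (14.4% of those detected). Genes of like level had a median of -0.27 there, and 18.4% of them were called lower. Centring ended 5 of the 7 calls, those of Dnmt1, Dnmt3a, Tet2, Bmi1 and Chd2, and left Tet1 and Tet3. Ezh1 (-0.11) and Ezh2 (-0.15) were the closest to 0 of the 10 genes in cluster 6.

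**Figure D4:**
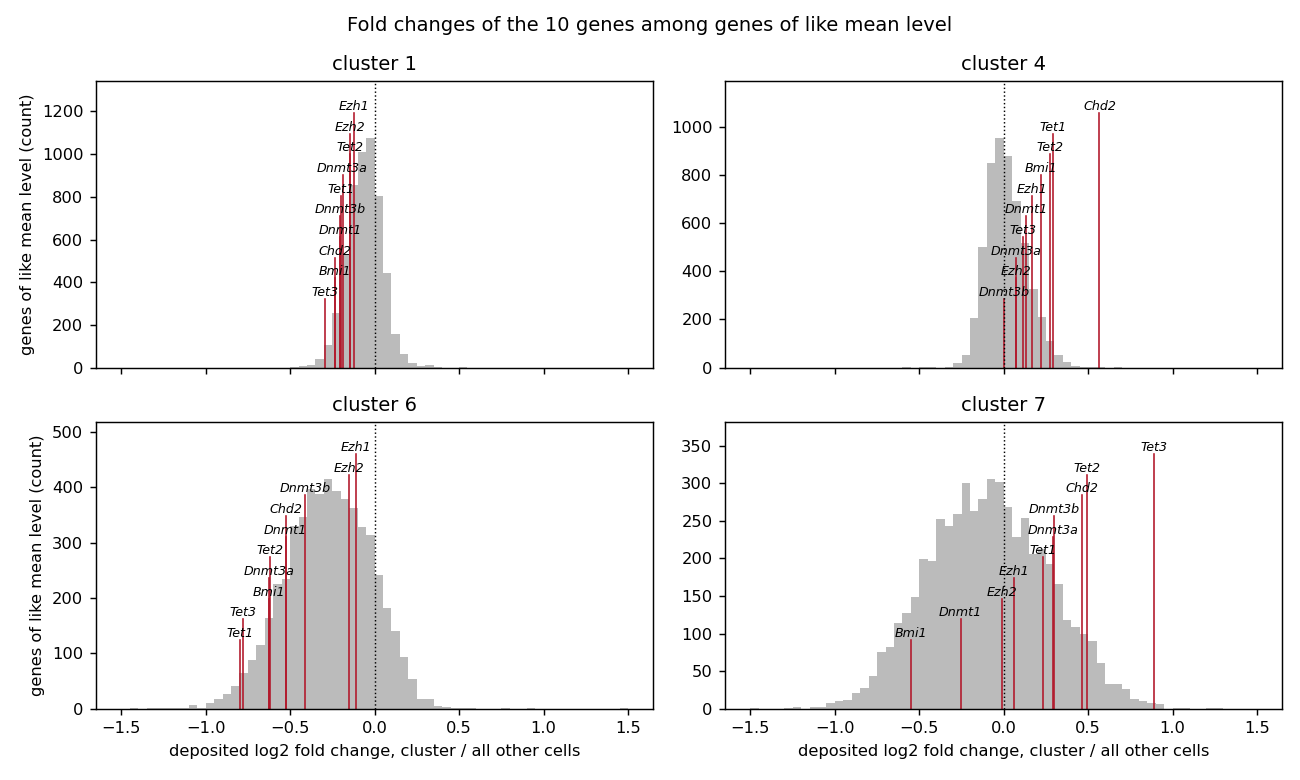
Number of genes of like mean level (grey, in steps of 0.05) by their deposited log2 fold in clusters 1, 4, 6 and 7, with a red line for each of the 10 genes; line heights differ only to keep names apart. The 10 genes lie left of 0 in clusters 1 and 6 and at or right of 0 in cluster 4 (with centred folds Ezh1 and Ezh2 cross 0 in cluster 6 and Dnmt3b in cluster 4), and Chd2 in cluster 4 (0.57) and Tet3 in cluster 7 (0.89) lie at the right edge.

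Depth and gene span differed between these clusters too. Cluster 1 was the shallowest and cluster 4 the deepest of the 5 largest, and clusters 6 and 7 were shallower still. The median fold of the 10 genes was -0.57 in cluster 6 and 0.26 in cluster 7. The 10 genes are long: their median genomic span was 73.3 kb, against 23.3 kb over genes at or above the median level, and only Bmi1 (9.61 kb) was under 35.3 kb. In cluster 4 genes over 100 kb had a median log2 fold of 0.11 and genes under 10 kb one of -0.06. In cluster 6 these medians were -0.42 and -0.10, in cluster 1 -0.09 and -0.00, and in cluster 7 0.12 and -0.37. In the authors' deposited tables Bmi1, the short gene, had log2 folds of 0.22 (cluster 4), -0.24 (cluster 1), -0.63 (cluster 6) and -0.55 (cluster 7). All 13 mitochondrially encoded genes were called higher in cluster 7 (median 1.17), and 11 of 13 were called lower in cluster 6 (median -0.74), while their median was -0.03 in both cluster 1 and cluster 4, with 1 call. Nuclear RNAs went the same way, 3 of 8 detected being called higher in cluster 7 (Malat1 and Neat1, 0.63 each) and 4 of 7 detected lower in cluster 6. The part of depth, span, mitochondrial and nuclear RNA in the levels of the 10 genes was not tested.

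**Figure D5:**
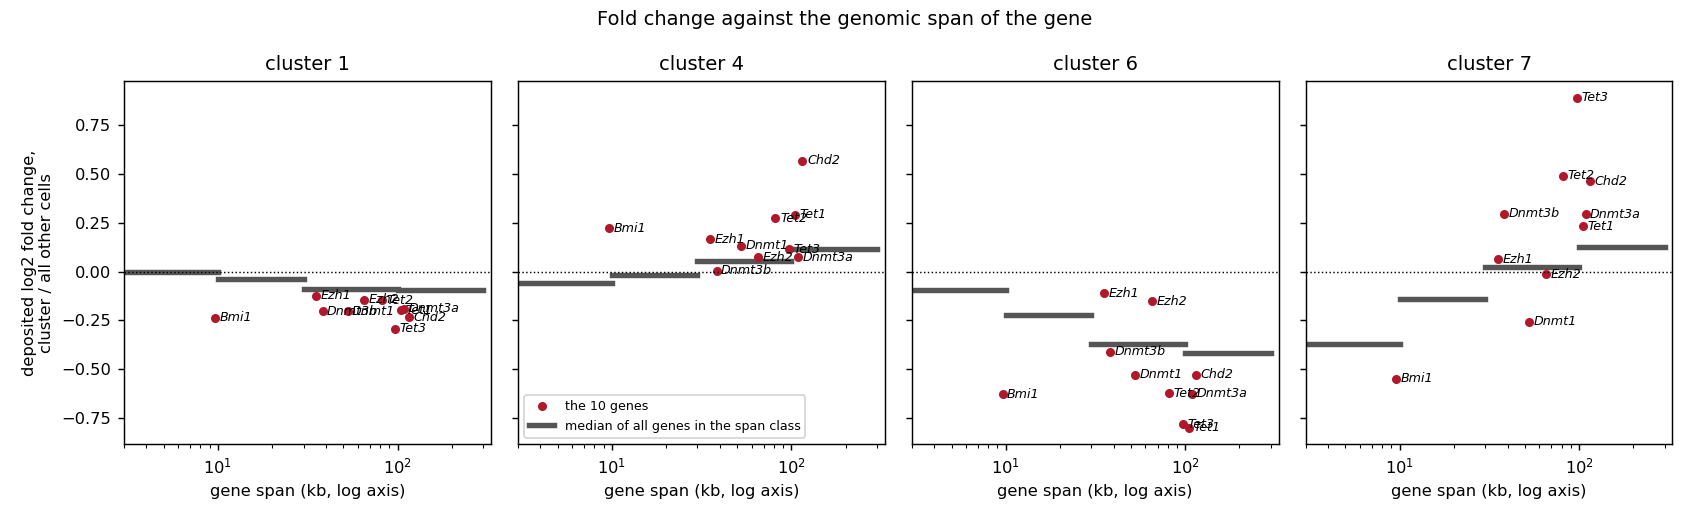
Deposited log2 fold against genomic span (kb, log axis) in clusters 1, 4, 6 and 7; grey bars are the medians of genes at or above the median level in 4 span classes, drawn to the edges of the plot for the outer classes, and red points are the 10 genes. In cluster 7 the grey bars climb between -0.37 and 0.12, Bmi1 (-0.55) lies below the shortest class and Tet3 (0.89) above the class it belongs to.

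Set directly, cluster 7 stood above cluster 6 in all 10 genes. The log2 ratios were 1.65 for Tet3, 1.10 for Tet2, 1.02 for Tet1, 0.98 for Chd2, 0.91 for Dnmt3a and 0.70 for Dnmt3b, with counting intervals apart. The intervals overlapped for Dnmt1 (0.27), Ezh1 (0.17), Ezh2 (0.14) and Bmi1 (0.08). Intervals of all other genes were not compared between these clusters, so this is no result particular to the 10 genes. Against all other cells, genes over 100 kb had a median log2 fold of 0.12 in cluster 7 and -0.42 in cluster 6. The 2 clusters held 267 and 310 cells, and about 38 counts stood behind the lowest of the cluster 7 values.

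The other genes of these pathways were read from lists of DNA methylation machinery (35 of 36 measured), PRC2 (13 of 14), PRC1 (24), enzymes that oppose Polycomb (16), CHD remodellers (10), SWI/SNF subunits (23) and ISWI and INO80 remodellers (23), which include the 10 genes. Calls were few in the large clusters. In cluster 0, where 2.4% of all genes were called higher and 6.62% lower, the lists held 1 higher and 5 lower calls, no larger a share than over all genes: Baz1a, an ISWI partner, was at 0.51, and Phf19, a PRC2 accessory subunit, at -0.83, Cbx6, a PRC1 chromobox gene, at -0.53, Asxl3, a relative of the Bap1 cofactor genes, at -0.95, Chd7 at -0.74 and Smarca1, an ISWI ATPase, at -1.09. In cluster 2, where 3.02% of all genes were called higher and 3.49% lower, Phf19 (0.76), Cbx6 (0.52), Asxl3 (0.94), Smarca1 (0.68) and Scml2 (0.53), another PRC1 gene, were called higher and Uhrf1 (-0.56), the partner that brings Dnmt1 to replicated DNA, was called lower. Clusters 0 and 2 each enter the other's rest, so the opposite signs are not separate evidence. Phf19, Asxl3, Smarca1 and Scml2 averaged under 0.0240 counts per 10,000. All folds are those of the authors' deposited tables.

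Imprinted genes, whose monoallelic expression depends on DNA methylation, moved between the same clusters. In cluster 0 12 of 23 measured were called lower (median -0.61), against 6.62% of all genes. In cluster 2 9 of 23 were called higher (median 0.41), against 3.02% of all genes. Among them were Meg3 (-1.41 in cluster 0 and 1.24 in cluster 2) and Cdkn1c (-0.91 and 0.92). Of the Cdkn2 cell cycle inhibitors, whose locus is a known Polycomb target, Cdkn2c, which lies apart from that locus, was called higher in cluster 0 (0.61) and lower in cluster 2 (-1.25). The methyltransferase and TET genes differed by at most 0.40 on the log2 scale between these clusters. Their part in the levels of imprinted genes was not tested.

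In clusters 3, 4 and 5, where 0.703%, 0.387% and 0.135% of all genes were called higher and 1.9%, 1.35% and 4.87% lower, Chd2 in cluster 4 was the only detected gene of these lists to be called. In cluster 1, where 0.123% of all genes were called higher and 2.4% lower, the only call was a lower one, Chd5, at -2.23 with a mean of 0.000797 counts per 10,000. In cluster 6, where 26.2% of all genes, 14.4% of those detected and 18.4% of those of like level were called lower, the lists held 17 of 34 detected genes of DNA methylation machinery (Mbd4, a thymine glycosylase, at -0.99), 10 of 24 of PRC1 (Cbx2 at -1.12), 8 of 16 opposing enzymes (Ash1l, a histone H3 lysine 36 methyltransferase, at -0.90), 7 of 9 CHD genes and 8 of 22 ISWI and INO80 genes (Atrx at -0.81). SWI/SNF, with 4 of 23, and PRC2, with 2 of 13, were near these shares. No gene of the lists was called higher in cluster 6, where 0.0469% of all genes were.

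In cluster 7 1.84% of all genes were called higher and 24.3% lower, or 11.3% of those detected. Calls went both ways within PRC1, where 3 of 24 genes were called lower, near the share of detected genes. Ring1 (-1.23) and Rnf2 (-0.78), the alternative E3 ligase subunits of the complex, and Bmi1 (-0.55), their partner, were called lower, while Phc3 (0.58), a Polyhomeotic subunit, was called higher. Of PRC2, Rbbp4 (-0.58), a histone-binding subunit shared with other complexes, was lower and Lcor (0.72) higher. Ogt (0.65), an enzyme that modifies proteins with a sugar and is known to bind TET proteins, Chd6 (0.74), Nsd2 (0.55) and Ino80d (0.51) were called higher with Tet3 in the authors' deposited table. Mbd3 (-0.54), Gadd45a (-0.90) and the SWI/SNF genes Bcl7b (-0.61) and Bcl7c (-0.55) were the other detected genes called lower there. In cluster 8 2.37% of all genes were called higher and 19.5% lower, or 4.19% of those detected. Ahcy (1.19), which clears the by-product of methylation reactions, Setd2 (0.60), Brd7 (0.67) and Baz1a (0.71) were called higher there with Tet3. Chd7 (-1.65), Epop (-1.10), Phf1 (-0.64), Cbx7 (-0.53), Scml2 (-2.34), Zbtb4 (-0.61) and Gadd45g (-0.56) were called lower. Scml2, Ahcy and Epop averaged only 0.0204, 0.0486 and 0.0891 counts per 10,000 over all cells. With 173 cells in cluster 8, few counts stood behind their folds. In that cluster 5 of 22 detected G2M genes were called higher (Mki67 at 2.98), and their part was not tested. In cluster 9, where 1.2% of all genes were called higher, the stress-inducible genes Gadd45b (1.91) and Gadd45g (0.98), the H3 lysine 27 demethylase gene Kdm6b (1.15) and Chd7 (0.92) were called higher. No detected gene of the lists was called lower in cluster 9, where 19.9% of all genes were called lower, or 2.09% of those detected.

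Cluster 10 had 10 cells and an equivalent depth of 49249 counts, and 8 of the 10 genes were above 0 there (median 0.71), against 78.0% of the genes detected. None was called, where 1.79% of all genes were called higher and 27.6% lower. Between 8 (Tet2) and 50 (Dnmt1) counts stood behind each value, and 27 of 28 detected S phase genes were above 0.

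Of the 2922 pathways scored by the authors, 12 concern chromatin or DNA methylation by name. In the authors' deposited tables the fold of the Reactome DNA methylation pathway in clusters 0, 1, 2 and 4 was 0.15, -0.19, 0.00 and 0.08, and the lowest value, in cluster 6, was -0.52. Reactome's PRC2 pathway was at 0.06, -0.10, 0.03 and 0.06 in clusters 0, 1, 2 and 4, and at -0.36 in cluster 6. In cluster 7 the BioCarta PRC2 pathway was at -0.26, while Reactome's was at -0.04 and the WikiPathways PRC2 interactome at 0.01. All 12 were below 0 in clusters 1 and 6, where 19.9% and 4.6% of all pathways with a fold were above 0, and 11 of 12 were above 0 in cluster 4, against 59.7%. All 12 were also above 0 in clusters 8 and 10, against 79.6% and 96.5%, and 10 of 12 in clusters 0 and 2, against 63.8% and 61.7%. Members of pathways were not analysed here.

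Over the folds of clusters 0 to 9, the patterns of Dnmt3a and Tet1 were the most alike among the 10 genes (Pearson r 0.93 over 10 clusters), followed by Dnmt3b and Tet3 (0.85), and Ezh1 and Ezh2 were the least alike (-0.55). Among 8247 well-detected genes the pattern nearest to Chd2 was that of Riok3 (0.97), then Fnbp1l (0.95) and Cep350 (0.95). Snx14 (0.96) was nearest to Ezh2, Agpat3 (0.95) to Ezh1, Glul (0.94) to Bmi1, Clstn3 (0.98) to Tet3 and Strn3 (0.99) to Tet2. Rab10 (0.96) was nearest to Dnmt1, Zfp267 (0.98) to Dnmt3a, Gmfb (0.97) to Dnmt3b and Myo18a (0.98) to Tet1. These coefficients describe 10 points that share cells, libraries and depth, and the small clusters weigh in them: over clusters 0 to 5 alone only 1 of the 30 nearest genes was named again.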

How the data were processed

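Single-cell RNA was measured in 6 libraries of sorted HSCs, about 10,000 cells loaded each, per the labels. The authors used Scanpy and the mm10 build, per the submitters' processing notes. For the aligner, cell filters, doublet handling and clustering settings, details were "not given in the sources used here". Deposited by the authors were, for each gene, its mean level as a log2 value and a log2 fold of each cluster against all other cells, with a p-value over cells and an adjusted p-value; the deposited pathway tables give a score, a log2 fold and p-values. Genes with no count in a cluster were taken as those with a deposited fold under -10.

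Cluster sizes came from p-values of 19 genes seen in 1 cell (7 clusters from both sides). The 11 folds and the sizes then fix each cluster's mean of ln(1 + counts per 10,000), and the p-values its SD. The inversion was tested on simulated data (60 of 60 genes with 1 solution, largest error 0.000286%) and checked on 163 genes undetected only in cluster 10 (largest difference 0.00116%). Intervals are 95% Poisson on estimated counts and cover counting error only. No test over animals could be made; levels and folds are descriptions. Gene positions are GENCODE annotation on mm10. Named genes were all 10 members, list genes past the size rule (up to 3 each way per cluster and list), the 3 nearest patterns per member, and genes of the covariate lists; the text prints part of these, and of the covariate and imprinted lists genes were picked after their values were seen. The members and lists were chosen with earlier results of these data known. Dppa3, Ezhip, Zim1, Rtl1, Cd3e, Cd8a and Siglech were not analysed here. Python 3.11.15, numpy 2.4.6, pandas 2.3.3, scipy 1.17.1 and matplotlib 3.10.9 were used.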

Additional observations from a re-analysis of the deposited data

How the results depend on the processing

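Of the 100 gene and cluster pairs of clusters 0 to 9, 93 kept their side of the size rule when each fold was centred on its cluster's median, and 6 of these, none called, changed sign: Ezh1 (0.12) and Ezh2 (0.08) in cluster 6, Ezh2 in cluster 7 (0.03), Dnmt3a (-0.05) and Chd2 (-0.03) in cluster 8 and Dnmt3b in cluster 4 (-0.01). Centring ended the calls of Dnmt1 (-0.29), Dnmt3a (-0.39), Tet2 (-0.39), Bmi1 (-0.39) and Chd2 (-0.29) in cluster 6 and of Tet3 in cluster 8 (0.44), and added Chd2 in cluster 7 (0.51); the median of all detected genes in cluster 6 was -0.23. The calls among the 10 genes, 3 higher and 8 lower, became 11 and 14 at a fold limit of 0.25, and 0 and 0 at a limit of 1. With the fold alone there were 5 higher calls, and with centred folds 3 lower calls. The calls over the regulator lists, 24 higher and 81 lower, became 81 and 153 at 0.25 and 3 and 10 at 1; with the fold alone there were 50 higher, and with centred folds 42 lower. Of the 30 nearest genes 1 was named again over clusters 0 to 5 and 8 with Spearman's rho. Pathway folds below 0 numbered 63, and 36 with the authors' adjusted p under 0.05. The share of all genes called lower was 11%, 4.23% among genes at or above the median level and 4.38% among those detected in the cluster, a background chosen after seeing the data. With cluster shares by least squares, the log2 ratio of Chd2 in cluster 4 to cluster 0 was 0.65 in place of 0.66. Counts of 32 to 58 behind Tet2 and of 37 to 49 behind Bmi1 in clusters 6 to 9 limit the precision there. No paired analysis was possible because each group is 1 library and the tables pool the libraries.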
